A study of Homo sapiens with 6 samples.

Results

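The Hippo pathway is described here in PC-3 cells through 10 genes: the coactivators YAP1 and WWTR1 (which encodes the protein TAZ), their DNA-binding partners TEAD1 and TEAD4, the kinases LATS1 and LATS2, the angiomotin-like scaffolds AMOTL1 and AMOTL2, and the secreted target gene products CTGF and CYR61. They were chosen by name for their place in the pathway, with earlier results of these data known, and the rule for choosing genes used no measured value. All 10 were found by symbol among the 22933 gene symbols of the deposited table. Each was read at the locus with the most RefSeq transcripts and, where that number tied, the highest value over both groups. All 10 had a mean FPKM (fragments scaled for transcript length and library depth) of at least 1 over the groups, as did 12511 gene symbols in all, which are called expressed below.

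PC-3 is an established human prostate adenocarcinoma line derived from a bone metastasis. All cells carried a retroviral rtTA2 transactivator (Tet-On Advanced) and a tdTomato reporter behind the PGK promoter. The 3 samples labelled tdTom had no further insert, and the 3 labelled TTP-tdTom also carried TTP (ZFP36) under the doxycycline-responsive Tight promoter. All 6 samples received 300 ng/ml doxycycline (Dox) for 4 hours, after selection with G418 for the transactivator and by tdTomato for the second virus. The methods describe 1 transduced and sorted line for each construct, and whether the 3 samples of a group came from separate cultures of it is not stated, so the construct and the line that carries it cannot be told apart. TTP, a zinc finger protein, shortens the life of mRNAs with AU-rich stretches in the 3′ untranslated region (3′UTR), and the comparison asks which transcripts differ soon after it is induced.

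The table holds 1 FPKM value per group and locus, so that neither the spread between the 3 samples of a group nor the number of fragments behind a value is known. Each difference below is therefore a description of these group values without a test, and fewer cells of a type and less RNA per cell cannot be told apart. Coordinates are those of the locus as the table gives it, which can hold more than 1 gene. ZFP36 itself, on chromosome 19 of GRCh37 from 39897487 to 39900052, stood at 5.56 FPKM in tdTom and 5.54 in the samples labelled TTP-tdTom, so the induced gene was not higher at its own locus. The reason was not tested, and directions below refer to the groups as labelled. Of the 5 epithelial markers, EPCAM, KRT8, KRT18 and KRT19 were at 15.1 FPKM or more throughout, while CDH1 was at 0.12 in tdTom and 0.39 in TTP-tdTom, and the 5 summed to 194.6 and 194.9. The 5 luminal prostate markers, KLK3 among them, were all at or below 2.53. The 3 blood and 3 endothelial markers were all below 1, and of the 4 fibroblast markers COL1A1 was highest at 4.56 and COL1A2 was listed at 0 in tdTom and at 1.38 in TTP-tdTom. The summed fibroblast level was 5.00 in tdTom and 6.87 in TTP-tdTom, and its part in the results was not tested.

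The Hippo pathway restrains organ growth and reads cell contact and tension. Its upstream kinases activate LATS1 and LATS2, which phosphorylate YAP and TAZ and so hold them in the cytoplasm or mark them for degradation. Unphosphorylated YAP and TAZ enter the nucleus and switch on genes through TEAD proteins, among them CTGF and CYR61, and also LATS2 and AMOTL2, whose products act back on YAP and TAZ as inhibitors. In epithelial cancers, high YAP and TAZ activity is known for its link with proliferation and invasion.

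The AU-rich heptamer that TTP prefers, UAUUUAU, was sought in the longest annotated 3′UTR of each member in GENCODE release 29. It occurred in 6 of the 10, and in 36.1% of the expressed symbols with a matched 3′UTR. These shares were not adjusted for 3′UTR length. The members' longest 3′UTRs ran from 195 bases in TEAD4 to 7261 in TEAD1. Those of YAP1, WWTR1, TEAD1, LATS1, LATS2, AMOTL1 and AMOTL2 were longer than the median of 1392 bases for the matched symbols. The sites are shown with their flanking bases because TTP is known to bind such letters. Capitals mark the heptamer, and sites are numbered from the 5′ end of the 3′UTR.

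WWTR1 site 1: uuauuagucugUAUUUAUaaaggcacacag
WWTR1 site 2: ugaacuaauauUAUUUAUaaucuaugaauu
WWTR1 site 3: ugauaaggugcUAUUUAUacuauauuucuu
TEAD1 site 1: acaugguUAUUUAUauauauagauau
TEAD1 site 2: ugaaauauuugUAUUUAUuguccuacuucc
LATS1 site 1: cauaucaauagUAUUUAUaagauguguucu
LATS2 site 1: aguuuaacuauUAUUUAUugauauaucauu
CYR61 site 1: acugaauguuuUAUUUAUcaaaauguagcu
CYR61 site 2: ugaaaagauuuUAUUUAUggaauuaaccau
AMOTL1 site 1: acaccuguaagUAUUUAUuacaaaacggaa

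The longer nonamer UUAUUUAUU occurred in LATS2 alone, 1 of the 10 members, and in 9.45% of the expressed symbols with a matched 3′UTR. YAP1, TEAD4, CTGF and AMOTL2 held no heptamer in any annotated 3′UTR, although YAP1 held 9, CTGF 3 and AMOTL2 2 copies of the pentamer AUUUA in the longest one.

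In the TTP-tdTom samples 9 of the 10 members were lower than in tdTom, and TEAD4 alone was higher. With records summed over loci 10 were lower, and centred on the median of expressed symbols 7 were, as CTGF (0.15) and AMOTL1 (0.09) then lay above 0. The largest differences were in WWTR1 and LATS1, with less than 50% of the tdTom level left, whereas CTGF, AMOTL1 and TEAD4 kept 89.9% or more. The median log2 fold change (TTP-tdTom over tdTom) of the 10 was -0.64, against -0.24 for the 12511 expressed symbols, of which 79.9% were lower as well. A difference of at least 2-fold was reached downward by 2 of the 10 members and by 8.30% of expressed symbols, and upward by 0 of the 10 and by 1.22% of expressed symbols. Centred on the median of expressed symbols, 0 of the 10 members were past 2-fold in either direction, beside 5.52% of expressed symbols. With a pseudocount of 1 FPKM it was 1 of the 10, beside 6.12%. At least 1.5-fold lower were 5 of the 10 members and 22.7% of expressed symbols. With 10 genes and no replicate values, these shares are descriptions only. TEAD1 lay just outside the 2-fold line with a log2 fold change of -0.95, and LATS1 just inside it at -1.07.

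**Figure D1:**
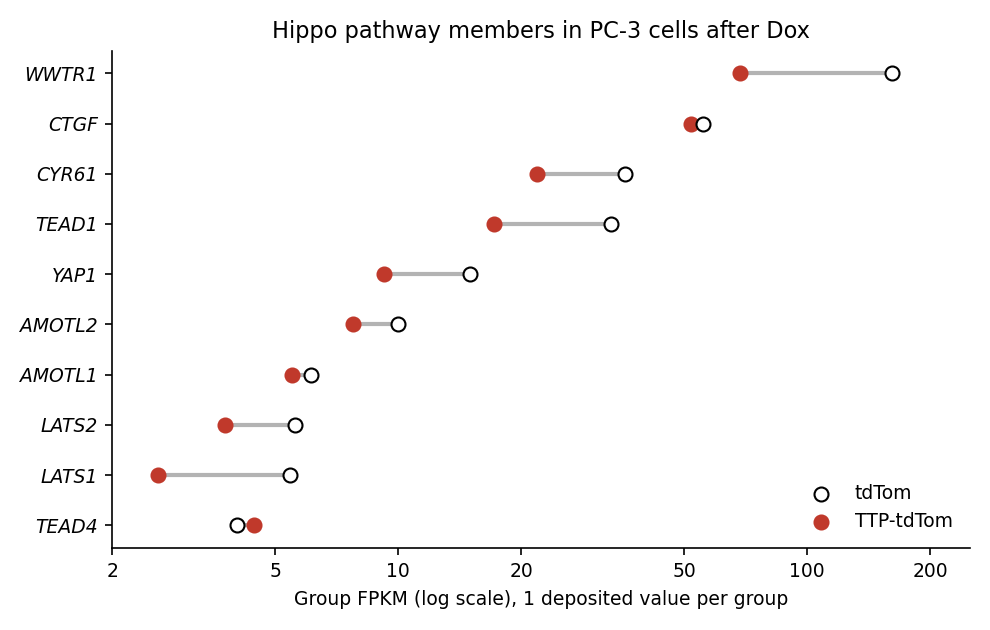
FPKM of the 10 members on a log axis, with open circles for the tdTom group and filled circles for the TTP-tdTom group, 1 deposited value each and no error bars. WWTR1 is the highest in both groups (161.2 and 68.7), and TEAD4 is the member whose filled circle lies to the right.

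The coactivators differed in level as well as in response. YAP1, on chromosome 11 of GRCh37 from 101979366 to 102104614, had an FPKM of 14.98 in tdTom and 9.25 in TTP-tdTom. WWTR1, on chromosome 3 from 149234197 to 149421882, had an FPKM of 161.2 in tdTom and 68.7 in TTP-tdTom. WWTR1 was thus 10.8 times as abundant per length as YAP1 in tdTom and 7.43 times in TTP-tdTom. The log2 fold change was -0.70 for YAP1 and -1.23 for WWTR1, a difference of 0.53 between them, and WWTR1 stood at percentile 4.00 of all expressed symbols, from the lowest, against 17.9 for YAP1. As WWTR1 made up 91.5% of the summed FPKM of the pair in tdTom, the sum followed it, from 176.2 to 78.0.

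Other records stood at both loci. A second YAP1 record with the same coordinates had an FPKM of 0.47 in tdTom and 0.73 in TTP-tdTom. The antisense gene WWTR1-AS1, which shares the WWTR1 coordinates, had 1.06 and 1.25. Neither was lower in TTP-tdTom. The libraries were strand-specific, but whether strand was used in counting is not given in the sources used here, so WWTR1 and its antisense partner may share fragments.

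TEAD proteins bind DNA and carry YAP and TAZ to their target genes. TEAD1, on chromosome 11 from 12695969 to 12966569, had an FPKM of 33.1 in tdTom and 17.2 in TTP-tdTom. TEAD4, on chromosome 12 from 3066180 to 3150322, had 4.03 in tdTom and 4.43 in TTP-tdTom. TEAD1 kept 51.9% of the tdTom level and TEAD4 109.7%, and their log2 fold changes were -0.95 and 0.13. The difference, TEAD1 minus TEAD4, was -1.08, the widest of the 5 related pairs compared. TEAD4 also had a second record at the same coordinates, at 1.81 in tdTom and 1.00 in TTP-tdTom. With both records added, the log2 fold change of TEAD4 was -0.11, so that its direction depends on this choice.

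The other family members, TEAD2 and TEAD3, lay between them, with log2 fold changes of -0.26 and -0.15. TEAD1 accounted for 72.9% of the summed FPKM of the 4 TEAD genes in tdTom and for 59.8% in TTP-tdTom, while the share of TEAD4 was 8.90% and 15.4%. The sum of the 4 was 45.3 in tdTom and 28.7 in TTP-tdTom.

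LATS1 and LATS2, the kinases that phosphorylate YAP and TAZ, were the least abundant pair. LATS1, on chromosome 6 from 149978972 to 150039392, had an FPKM of 5.43 in tdTom and 2.59 in TTP-tdTom. LATS2, on chromosome 13 from 21546868 to 21635722, had 5.60 in tdTom and 3.76 in TTP-tdTom. Their levels were therefore close in tdTom, with LATS2 1.03 times LATS1, and further apart in TTP-tdTom, where LATS2 was 1.45 times LATS1. The log2 fold changes were -1.07 for LATS1 and -0.58 for LATS2. At these low levels a pseudocount of 1 FPKM moved LATS1 to -0.84.

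The angiomotin-like proteins bind YAP and TAZ and hold them at junctions and in the cytoplasm. AMOTL1, on chromosome 11 from 94501467 to 94610129, had an FPKM of 6.13 in tdTom and 5.51 in TTP-tdTom. AMOTL2, on chromosome 3 from 134071431 to 134093454, had 9.98 in tdTom and 7.75 in TTP-tdTom. Their log2 fold changes were -0.15 and -0.36, on either side of the median of all expressed symbols. AMOT, the founding gene of the family, was at 1.52 and 1.54. The 3 genes summed to 17.6 in tdTom and 14.8 in TTP-tdTom. The AMOTL2 coordinates also held 2 records without a symbol, at 0.19 and 1.27 in tdTom and at 0.71 and 0.70 in TTP-tdTom.

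CTGF and CYR61 encode matricellular proteins of the CCN family that are widely read as markers of YAP and TAZ activity. CTGF, on chromosome 6 from 132269317 to 132272518, had an FPKM of 55.5 in tdTom and 52.1 in TTP-tdTom. CYR61, on chromosome 1 from 86046444 to 86049648, had 35.9 in tdTom and 21.9 in TTP-tdTom. CTGF thus kept 93.9% of its tdTom level and CYR61 60.9%, with log2 fold changes of -0.09 and -0.72, and CTGF was 1.55 times CYR61 in tdTom and 2.38 times in TTP-tdTom. CTGF stood at percentile 69.6 of the expressed symbols and CYR61 at 17.1. In the same family NOV had a log2 fold change of -0.86, from an FPKM of 6.69 in tdTom to 3.68 in TTP-tdTom, and WISP1 one of 0.12, from 1.11 to 1.21.

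**Figure D2:**
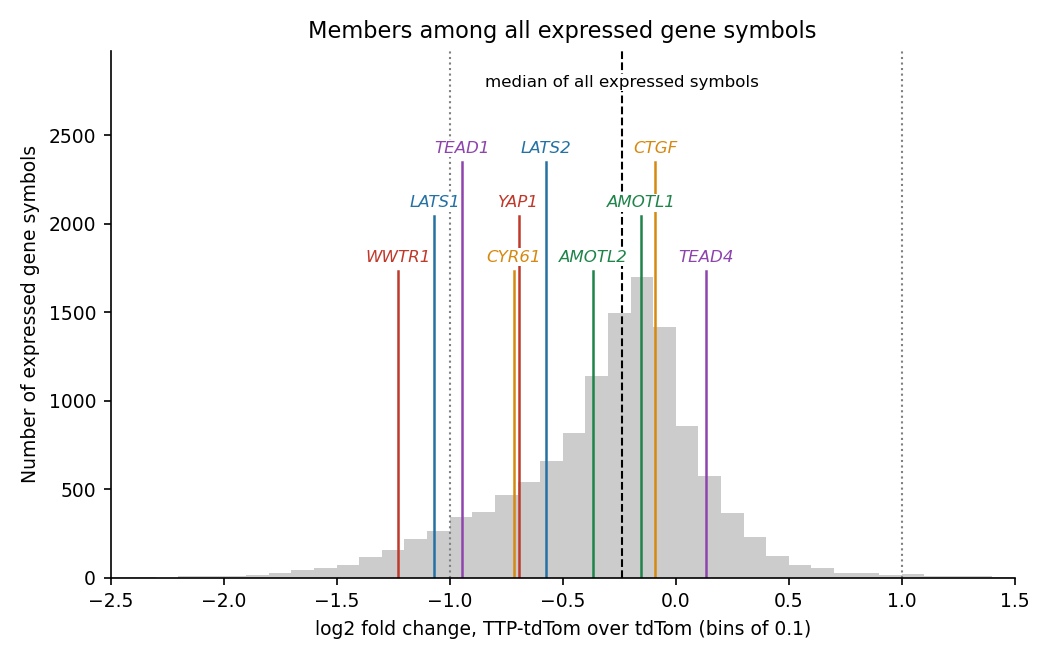
Histogram of the log2 fold change (TTP-tdTom over tdTom, bins of 0.1) of the 12511 expressed gene symbols, with a line for each member coloured by role (coactivators red, TEAD purple, kinases blue, scaffolds green, targets orange), a dashed line at the median of -0.24 and dotted lines at 2-fold. The axis runs from -2.5 to 1.5 and leaves out 122 symbols, and 6 of the 10 members lie at or below the lower quartile of -0.54.

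The order of the levels was the same in both groups for the 7 most abundant members, from WWTR1 through CTGF, CYR61, TEAD1, YAP1 and AMOTL2 to AMOTL1. Below them the order was LATS2, LATS1, TEAD4 in tdTom and TEAD4, LATS2, LATS1 in TTP-tdTom. Several neighbours were close, such as CYR61 over TEAD1 (1.09-fold in tdTom), AMOTL1 over LATS2 (1.09-fold) and LATS2 over LATS1 (1.03-fold). Without replicate values it cannot be said which neighbours differ beyond their spread.

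The 6 members with a heptamer had log2 fold changes between -1.23 and -0.15, with a median of -0.83, and the 4 without had values between -0.70 and 0.13, with a median of -0.23. The 2 ranges overlapped. AMOTL1 held 1 copy within 5958 bases of 3′UTR and kept 89.9% of its level, and YAP1 held none in 3483 bases and kept 61.8%. CYR61 held 2 copies in only 920 bases, the highest density of the 10, and WWTR1 held 3 in 3570 bases, the highest number. Among the 11477 expressed symbols with a matched 3′UTR, 36.1% held the heptamer. Their median log2 fold change was -0.17 with 0 copies, -0.36 with 1, -0.54 with 2 and -0.63 with 3 or more. The same classes differed in 3′UTR length, with medians from 928 bases at 0 copies to 4544 at 3 or more, and in GC content of the transcript, with medians from 51.5% to 40.1%.

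GC content of the transcript moved with the fold change too. LATS1 (39.7% GC), WWTR1 (40.9%) and TEAD1 (41.3%) had the lowest GC content of the 10 and the lowest fold changes, and TEAD4 (60.4%) had the highest of both. Across the 10 genes Spearman's rho between GC content and log2 fold change was 0.83 and Pearson's r 0.84, given as a description of genes that share the same 2 group values. Across the 11477 symbols rho was 0.49, and the median log2 fold change went from -0.76 in the lowest decile of GC content to -0.09 in the highest. Set against the median of their own GC decile, 7 members were lower and 3 higher, with WWTR1 the furthest below (by -0.81 on the log2 scale) and TEAD4 the furthest above (by 0.23). LATS2, CTGF, CYR61 and AMOTL1, the members in GC deciles 6 and 7, had similar GC content (51.8%, 51.5%, 50.3% and 48.8%). Their log2 fold changes were -0.58, -0.09, -0.72 and -0.15. The part of GC content or 3′UTR length in the members' values was not tested.

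**Figure D3:**
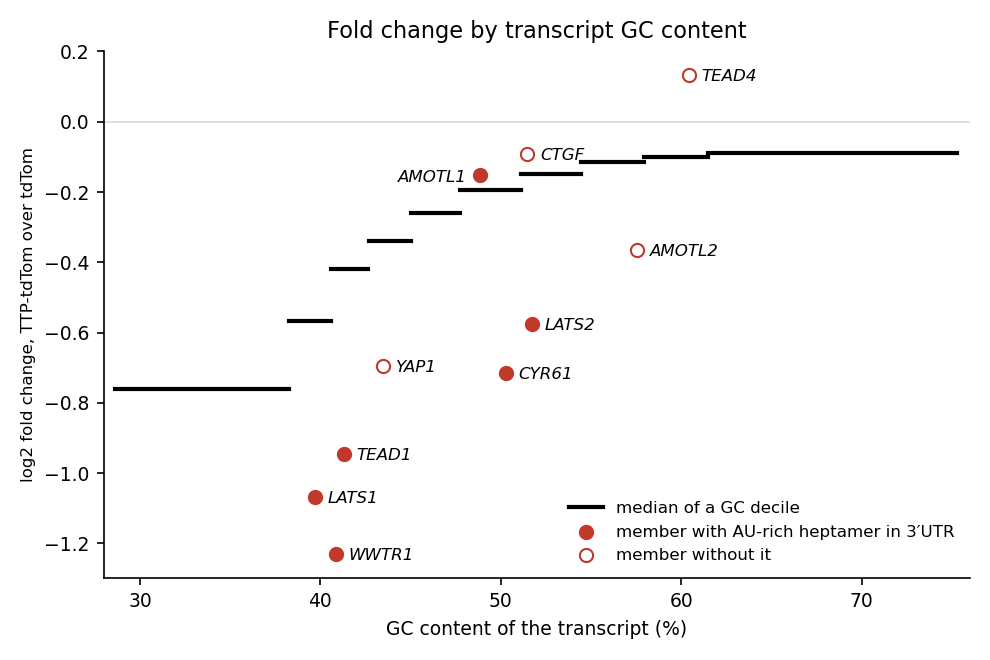
Log2 fold change (TTP-tdTom over tdTom) of each member against the GC content in percent of its transcript, filled where the longest 3′UTR holds the heptamer, with a black bar for the median of expressed symbols in each decile of GC content. WWTR1, LATS1 and TEAD1 lie lower left, and 7 of the 10 members lie below the bar of their decile.

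TEAD proteins bind a short motif in promoters and, for the most part, in distal enhancers, of which only promoter windows were searched here. The RefSeq promoter table (GRCh38.p14, 250 bases before to 50 after the gene start) held 10 windows of 7 members, and none of TEAD1, TEAD4 or CYR61. The letters GGAATG were sought on both strands (CATTCC on the other). The CTGF window, chr6:131951323-131951622 on the minus strand, is printed with its copies in capitals because it held 3, which 0.128% of the 35116 windows of this length reached.

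CTGF promoter: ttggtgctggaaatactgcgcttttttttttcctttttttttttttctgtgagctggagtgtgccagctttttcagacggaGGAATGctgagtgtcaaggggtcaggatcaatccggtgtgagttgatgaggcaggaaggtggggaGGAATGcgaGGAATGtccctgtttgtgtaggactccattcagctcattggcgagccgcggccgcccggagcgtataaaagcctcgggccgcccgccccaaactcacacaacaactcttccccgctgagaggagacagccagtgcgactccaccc

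The 3 copies began at positions -169, -104 and -95 from the start. LATS2 (at 10), AMOTL2 (at -69) and YAP1 (at -162) held 1 copy each, and 14.0% of all windows held at least 1. Their surroundings are shown for comparison, LATS2 from chr13:21061537-21061836 on the minus strand, AMOTL2 from chr3:134374398-134374697 on the minus strand and YAP1 from chr11:102110197-102110496 on the plus strand.

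LATS2: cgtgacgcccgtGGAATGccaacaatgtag
AMOTL2: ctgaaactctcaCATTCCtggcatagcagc
YAP1: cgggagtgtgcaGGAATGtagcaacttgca

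WWTR1, LATS1 and AMOTL1 held none in these windows. The matches describe letters only. CTGF, with 3 copies, had a log2 fold change of -0.09, and LATS2, AMOTL2 and YAP1, with 1, had -0.58, -0.36 and -0.70.

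Beyond the members, 88 other genes of the pathway were listed by role, of which 76 were expressed. Of these 76, 14, or 18.4%, were at least 2-fold lower in TTP-tdTom and 0 at least 2-fold higher, against 8.30% and 1.22% of expressed symbols, and their median log2 fold change was -0.33. Centred on the median of expressed symbols, 6 of the 76, or 7.89%, were at least 2-fold lower, against 3.87% of expressed symbols. Without centring, the background share at least 2-fold lower went from 29.6% in the lowest decile of GC content to 0.87% in the highest. The part of GC content in the values of the 76 was not tested.

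In the list of core kinases, adaptors and scaffolds, which includes the LATS-related kinases STK38 and STK38L and the YAP-binding AMOT and PTPN14, 22 genes other than the members were expressed. Of the 22, 6 were at least 2-fold lower, beside 8.30% of expressed symbols. With the members, 7 of the 26 expressed genes in the list were past 2-fold, beside 9.53% of expressed symbols in either direction. Centred on the median of expressed symbols, 2 of them were, beside 5.52%. STK3 (MST2), a kinase that activates LATS, had an FPKM of 3.77 in tdTom and 1.11 in TTP-tdTom, a log2 fold change of -1.77. SAV1, the adaptor that holds MST kinases to LATS, had 25.3 and 10.6. WWC2, a scaffold related to KIBRA, had 9.51 and 4.09. MINK1, a kinase of the MAP4K group, was highest at 0.02. The median of the 22 was -0.66, close to that of the members.

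The STRIPAK complex, which carries a phosphatase that switches MST kinases off, and other inhibitors of the cascade had a like median of -0.65 over 12 expressed genes. At least 2-fold lower were 4 of the 12, beside 8.30% of expressed symbols. SIKE1 had the lowest log2 fold change at -1.55, STRN followed at -1.34 and PDCD10 at -1.29, the last from an FPKM of 143.3 in tdTom to 58.5 in TTP-tdTom. CTTNBP2NL was highest at 0.02, at a locus with a further symbol. Of these 12 genes 11 were lower, as were 20 of the 22 kinases, adaptors and scaffolds, beside 79.9% of all expressed symbols.

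Of 12 expressed polarity and junction genes, 11 were lower, 0 were at least 2-fold lower and 3 were at least 1.5-fold lower, beside 79.9%, 8.30% and 22.7% of expressed symbols, and the median was -0.31. The adaptors DLG1 (-0.90), MPP5 (-0.78) and CTNNA1 (-0.77) were lowest on the log2 scale, and LLGL2 was highest at 0.23. For the turnover and cytoplasmic retention of YAP and TAZ, the median of 10 expressed genes was -0.24, and 2 were at least 2-fold lower, beside 8.30% of expressed symbols. These were YWHAG, a 14-3-3 protein, at -1.12, and FBXW11, at -1.02. When centred, 0 of the 10 were past 2-fold, beside 5.52% of expressed symbols. FBXW11 and BTRC encode the paralogous F-box proteins β-TrCP2 and β-TrCP1, substrate receptors that lead phosphorylated YAP and TAZ to degradation, and BTRC was higher, with an FPKM of 4.02 in tdTom and 5.12 in TTP-tdTom. YWHAZ, the most abundant 14-3-3 gene of the list in tdTom after YWHAQ, had a log2 fold change of -0.68.

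Of the 20 expressed genes in a list of YAP and TAZ targets, 4 of them members, 18 were lower and 2 were at least 2-fold lower, with a median of -0.33. Of all expressed symbols 79.9% were lower and 8.30% at least 2-fold lower, so the targets' share past 2-fold was near the background. GADD45A, a growth arrest gene, had an FPKM of 41.8 in tdTom and 15.9 in TTP-tdTom, a log2 fold change of -1.40. CRIM1, a transmembrane regulator of growth factors, was at -1.21 and MYOF, a membrane repair protein, at -0.84. NUAK2, a kinase, was highest at 0.41, at an FPKM of 1.36 and 1.81. Without the 4 members, the other 16 targets had a median of -0.25, beside -0.24 for all expressed symbols.

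**Figure D4:**
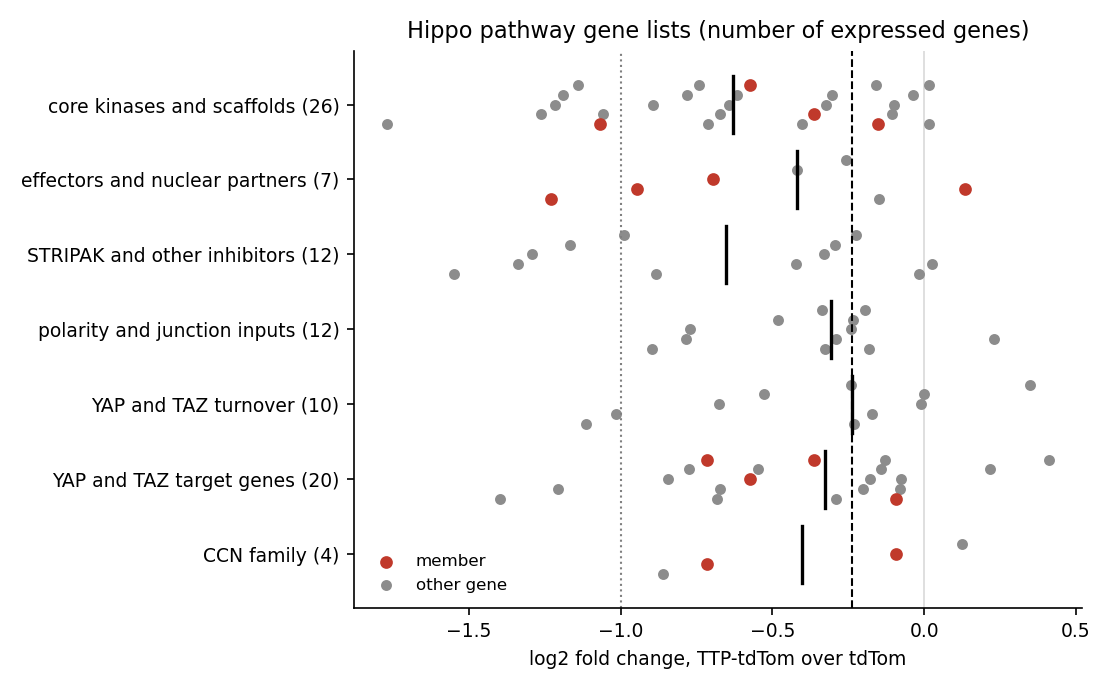
Log2 fold change (TTP-tdTom over tdTom) of each expressed gene in 7 pathway lists, 1 point a gene, members in red, with a black bar for the median of the list, a dashed line for the median of all expressed symbols and a dotted line at 2-fold lower. The kinase and STRIPAK lists have medians of -0.63 and -0.65, and the turnover list lies on the dashed line.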

How the data were processed

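RNA-Seq was performed on 6 samples. Per the labels and the methods, strand-specific libraries were aligned to Hs37D5 (GRCh37 with decoy sequence) with TopHat2 2.0.13 and compared with Cufflinks 2.2.1. The authors deposited a gene-level Cuffdiff table with 1 FPKM value per group and locus. Its columns of fold changes, test statistics, p-values and q-values hold the authors' own comparison and were not used. Samples of a group cannot be separated in these values, so no spread, interval or test is given. The labels state an intended sequencing depth, but the table holds neither library totals nor the fragments behind a value.

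Log2 fold changes were computed from the FPKM values without a pseudocount. A symbol was read at the locus with the most RefSeq names, then the highest FPKM, and called expressed above 0 in both groups with a mean of at least 1. Starts are counted from 1. The members and lists were chosen with earlier results of these data known. Named genes are the members and, in each list, the 3 lowest and the highest expressed genes, with ZFP36, ZFP36L1 and ZFP36L2. TEAD2, TEAD3, AMOT, PTPN14, STK38, STK38L, YWHAQ, DCHS1, VGLL1, VGLL2, VGLL3 and WWTR1-AS1 fall outside this rule and were named after their values were seen. Cell type markers came from a separate list, of which EPCAM, KRT8, KRT18, KRT19, CDH1, KLK3, COL1A1 and COL1A2 are named. Longest 3′UTRs came from GENCODE release 29 by symbol (91.7% of expressed symbols matched) and promoters from RefSeq; CTGF and CYR61 are CCN2 and CCN1 there. Functions were tested on simulated data. Alternatives were pseudocounts of 0.1 and 1, other loci, minimums and folds, centring and rescaling. Python 3.11.15, numpy 2.4.6, pandas 2.3.3 and scipy 1.17.1 were used.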

Additional observations from a re-analysis of the deposited data

How the results depend on the processing

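No paired analysis was possible because only 1 value was deposited for each group, and no replicate could be left out. WWTR1, LATS1, TEAD1, CYR61, YAP1, LATS2 and AMOTL2 were lower in TTP-tdTom under every alternative run. TEAD4 turned to -0.11 with its records summed. Centring added 0.24 to every log2 fold change and put CTGF at 0.15 and AMOTL1 at 0.09, above 0. It put the members' median at -0.40. Members past 2-fold, 2 in the main setting, numbered 1 with a pseudocount of 1 FPKM, 0 when centred, 5 at 1.5-fold and 0 at 3-fold. At a minimum mean FPKM of 10 only WWTR1, CTGF, CYR61, TEAD1 and YAP1 were left, and 1 of them, WWTR1, was past 2-fold. LATS1 fell below that minimum, and its fold change was not altered by it.

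For the lists the counts past 2-fold were, for core kinases and scaffolds (7), 2 when centred, 4 at a minimum of 10, 14 at 1.5-fold and 1 at 3-fold. The minimum of 10 left fewer genes in the list, and STK3, LATS1 and WWC2 fell below it with unaltered fold changes. For effectors (1) the counts were 0 centred, 2 without a minimum, 3 at 1.5-fold and 0 at 3-fold. STRIPAK (4) had 0 at 3-fold. Polarity genes (0) had 3 at 1.5-fold and 1 without a minimum, which was DCHS1, higher in TTP-tdTom. Turnover (2) had 1 with a pseudocount of 1, 0 centred, 1 rescaled to equal FPKM sums and 0 at 3-fold. Targets (2) had 1 centred, 7 at 1.5-fold and 0 at 3-fold, and the CCN family (0) had 2 at 1.5-fold. The 76 listed genes other than the members (14), a count added after seeing the data, had 6 centred, 31 at 1.5-fold and 1 at 3-fold. Of all expressed symbols 9.53% were past 2-fold in either direction, 6.12% with a pseudocount of 1 and 5.52% centred. The share was 15.8% without a minimum, 10.2% at a minimum of 10, 25.1% at 1.5-fold and 2.04% at 3-fold. The table does not give the fragments behind a value, so no counting precision can be given, for low values such as LATS1 and TEAD4 in particular.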

Other observations

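ZFP36L1 and ZFP36L2, the other TTP family genes expressed here, were lower in TTP-tdTom, with an FPKM of 40.3 in tdTom and 23.3 in TTP-tdTom for ZFP36L1 and of 53.9 and 22.7 for ZFP36L2. Their log2 fold changes were -0.79 and -1.25, the latter below WWTR1, the lowest Hippo pathway member, at -1.23.

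DCHS1, a protocadherin at the top of the Fat branch of the pathway, was singled out after its values were seen. Its FPKM was 0.08 in tdTom and 1.17 in TTP-tdTom, a log2 fold change of 3.81 at a mean below the minimum of 1. The Vestigial-like cofactors VGLL1, VGLL2 and VGLL3, which bind TEAD proteins, were also below the minimum, with VGLL3 the highest at 1.10 in tdTom and 0.73 in TTP-tdTom.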
